A study of Mus musculus with 8 samples.

Results

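The genes described here are the 20 cytosolic aminoacyl-tRNA synthetase genes measured in the dorsomedial hypothalamus of the mouse and 17 genes of the amino acid response governed by the transcription factor ATF4. They were chosen by name, as synthetases and ATF4 targets, with earlier results of these data known. They make up 37 of the 55487 gene identifiers in the deposited tables. All 37 passed the filter on low counts, as did 17339 genes in all. RNA was sequenced from 8 laser-microdissected samples of the dorsomedial hypothalamus (DMH), a hypothalamic nucleus with roles in appetite, sleep and body temperature. The 4 libraries of the group shfLuc carried a hairpin against firefly luciferase, an insect enzyme that mice lack, and the 4 of shPpp1r17 a hairpin against Ppp1r17, which encodes a phosphatase inhibitor. The labels give these groups as the genotypes fLuc knockdown and Ppp1r17 knockdown and do not state the age, sex or strain of the mice, how the hairpins were delivered, or which cells received them. Nor do they tie each library to an animal of its own, and the p-values therefore reflect the scatter among these libraries, some of which may be technical.

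Aminoacyl-tRNA synthetases join each amino acid to its tRNA, and the charged tRNAs feed the ribosome. When a tRNA stays uncharged, or when another stress acts on the cell, kinases phosphorylate the initiation factor eIF2alpha, which lowers general protein synthesis while translation of Atf4 mRNA goes up. ATF4 then pairs with C/EBP proteins on short DNA elements and raises transcription of synthetases, of enzymes that make asparagine, serine and glycine, of amino acid transporters, and of regulators such as CHOP, the product of Ddit3.

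To show the letters these genes are known for, the C/EBP-ATF element TGATGNAA was searched on both strands of RefSeq promoter windows of GRCm38.p6, from 250 bases before to 50 bases after each gene's start. A window was given for 28 of the 37 genes, and 9 of them held the element: the synthetases Aars, Gars, Iars, Tars and Yars, and Asns, Chac1, Trib3 and Slc7a11. In all, 2.81% of the 11971 tested genes with a window held it. The genes were picked partly as ATF4 targets, so that difference in share is a description of the choice. Below are the element and its flanks in 5 of them, in the direction of the gene, with the element or its reverse complement in capitals.
Asns, chr6:7693214-7693243, minus strand: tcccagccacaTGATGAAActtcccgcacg
Chac1, chr2:119351038-119351067, plus strand: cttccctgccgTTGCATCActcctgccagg
Iars, chr13:49682126-49682155, plus strand: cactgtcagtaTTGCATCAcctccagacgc
Yars, chr4:129189895-129189924, plus strand: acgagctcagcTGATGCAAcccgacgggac
Slc7a11, chr3:50443661-50443690, minus strand: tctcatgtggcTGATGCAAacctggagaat
Relative to the gene's start, the element began at position -23 in Asns, -193 in Chac1, 7 in Iars, 3 in Yars and -66 in Slc7a11. Of the genes described below as changed, Sars, Atf4, Ddit3 and Mthfd2 had a window and none of these windows held the letters, which says nothing about sites outside it. Cars, Hars, Lars, Nars, Rars, Vars, Wars, Eif4ebp1 and Slc7a5 had no window.

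The libraries held 23070147 to 33907984 estimated reads. The targeted gene checked the labels: Ppp1r17 stood at 147, 161, 161 and 171 CPM (counts scaled to a common library size) in shfLuc 1 to 4 and at 87.7, 2.07, 3.10 and 87.2 CPM in shPpp1r17 1 to 4. Each shPpp1r17 library had less than any shfLuc library, with a far deeper loss in libraries 2 and 3 than in 1 and 4 (exact two-sided permutation test, p = 0.0286, the smallest that 4 against 4 libraries allow). In edgeR's quasi-likelihood test its Benjamini-Hochberg adjusted p was 0.197. The shPpp1r17 libraries 2 and 3 also lay farthest out on the first principal component (46.9 and 46.0), which held 32.3% of the variance. On its other side shfLuc 4 lay nearly as far out (-43.6). Results are given below with and without shPpp1r17 libraries 2 and 3. Neuron markers were abundant in every library, with summed levels of 5238 to 5369 CPM in shfLuc and 5262 to 5720 CPM in shPpp1r17. Of genes known from the DMH, picked after their values were seen, Gpr50 averaged 5.64 and Nkx2-1 2.86 on the log2 CPM scale.

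Among the 37 genes, 5 rose and 1 fell in shPpp1r17. Atf4 itself, its partner gene Ddit3, the one-carbon enzyme gene Mthfd2 and the synthetases Nars and Sars rose by 0.41 to 0.66 on the log2 scale, and the tryptophanyl-tRNA synthetase Wars fell by 0.84. Over all tested genes, edgeR's quasi-likelihood test called 6.06% at an adjusted p under 0.05, 3.39% higher and 2.66% lower. The other 31 genes did not pass. The fitted log2 fold change was above 0 in 27 of the 37, and its median was 0.14, where the median over all tested genes was 0.00. The libraries of both groups did not overlap for 9 genes that were higher and 2 that were lower in shPpp1r17, where this held for 7.12% and 6.74% of all tested genes. In these bulk samples a change in the number of cells of a type cannot be told apart from a change in RNA per cell.

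**Figure D1:**
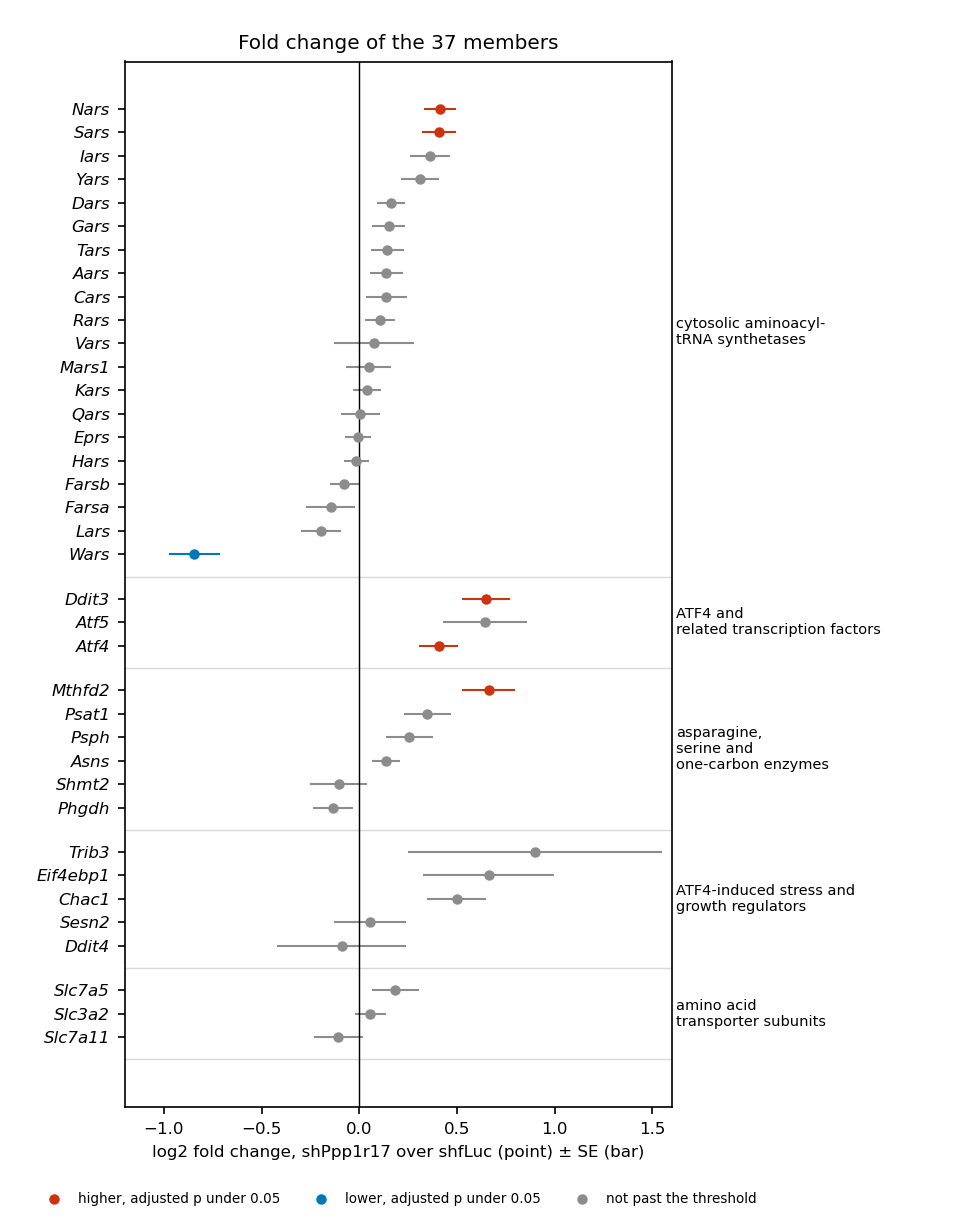
Fitted log2 fold change of each of the 37 genes (points, with SE as bars), shPpp1r17 over shfLuc, grouped by role. Red and blue points mark the 5 genes called higher and the 1 called lower, and Trib3 has the widest error.

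The synthetases differ widely in level. In TPM, which scales for gene length as well as library size, Nars stood highest in shfLuc at 209 ± 11.98 (SD, n = 4), followed by Sars at 175 ± 11.02, Hars at 144 ± 4.89 and Kars at 114 ± 9.08. Vars was lowest at 5.24 ± 0.97 TPM. Asns, at 141 ± 5.64 TPM, was the most abundant of the ATF4 group and lay within the spread of Hars. Next in that group came Slc3a2 at 75.5 ± 7.98, Ddit3 at 73.7 ± 6.53 and Phgdh at 70.4 ± 7.57 TPM, which differed by less than their SDs, and Atf4 followed at 62.7 ± 2.87 TPM. Atf5, Sesn2, Eif4ebp1, Ddit4 and Trib3 stood below 4 TPM, and Trib3 at 0.284 TPM rested on 4 to 31 reads per library, so its fold change carries little precision.

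**Figure D2:**
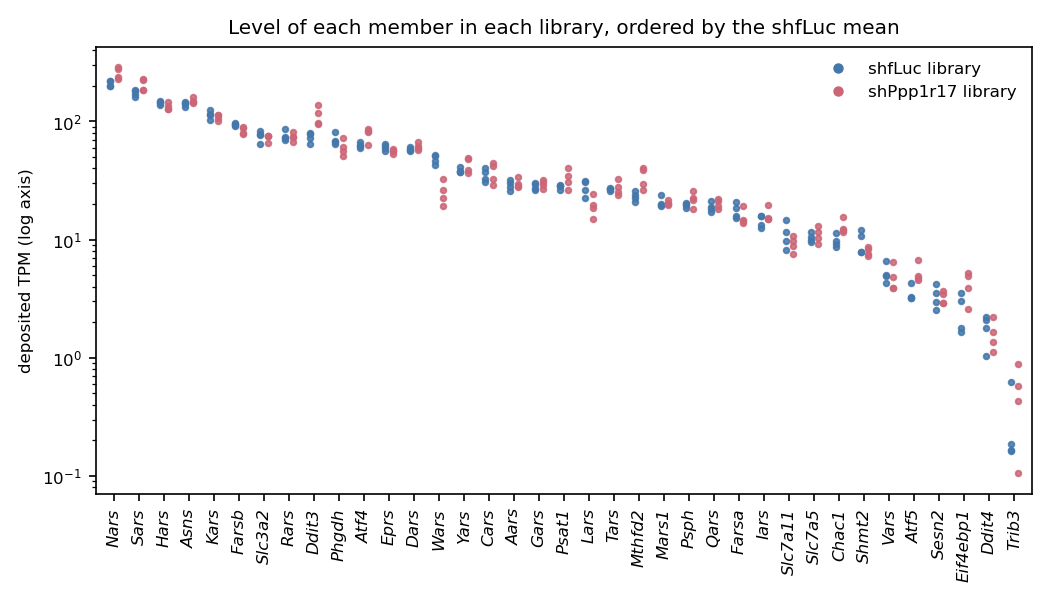
Deposited TPM of the 37 genes in each of the 8 libraries on a log axis, ordered by the shfLuc mean (blue, shfLuc; red, shPpp1r17). Nars and Sars lead, Trib3 comes last, and the red points of Wars lie below all of its blue ones.

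Of the 20 synthetases, Nars and Sars rose, Wars fell and 17 did not pass, with 14 fold changes above 0 and a median of 0.09. Nars, which charges tRNA with asparagine, stood at 374, 363, 384 and 403 CPM in shfLuc 1 to 4 and at 450, 559, 550 and 468 CPM in shPpp1r17 1 to 4. Every shPpp1r17 library was above every shfLuc library, with libraries 2 and 3 the highest. The log2 fold change was 0.41 (SE 0.08, edgeR adjusted p = 0.0143).

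Sars, the seryl-tRNA synthetase, was nearly constant in shfLuc at 232, 234, 239 and 238 CPM and stood at 276, 345, 352 and 277 CPM in shPpp1r17. Again the groups were apart and libraries 2 and 3 led. The log2 fold change was 0.41 (SE 0.09, edgeR adjusted p = 0.0200).

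Wars went the other way. It stood at 85.6, 101, 98.3 and 90.5 CPM in shfLuc 1 to 4 and at 67.9, 46.4, 41.6 and 53.2 CPM in shPpp1r17 1 to 4, which made the shPpp1r17 mean 55.7% of the shfLuc mean. All 4 shPpp1r17 libraries were below all shfLuc libraries, and libraries 3 and 2 were the lowest. The log2 fold change was -0.84 (SE 0.13, edgeR adjusted p = 0.00997), the smallest p among the 37 genes. Wars is known to be induced by interferon as well as to charge tRNA with tryptophan, and by its direction it stood alone among the called genes of both groups. In its 3' UTR, on the minus strand of chromosome 12 at chr12:108861127-108861133 (GRCm38, exon 10 of 10), lies a 7-base end of CTCTGATA, an 8-base run picked because genes holding it had low fold changes in these data.
Wars, 3' UTR, match in capitals: tgctgtttcttCTCTGATgtctccccgtc
The run or one of its 7-base ends lay in 18.7% of the 14261 genes with a searched 3' UTR and in 55.0% of the 436 searched genes called lower. Because the run was picked from these fold changes, those shares are a description and support nothing. Cars, Shmt2 and Slc7a11 were the other 3 of the 37 genes with such a match, and none of them passed, with log2 fold changes of 0.14, -0.11 and -0.11.

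Iars and Yars, for isoleucine and tyrosine, came close to the threshold. Iars stood at 40.4, 40.6, 40.2 and 48.1 CPM in shfLuc and at 50.6, 65.2, 51.9 and 49.97 CPM in shPpp1r17, with groups that did not overlap (log2 fold change 0.36, edgeR adjusted p = 0.0541). Yars stood at 75.0, 72.2, 66.4 and 76.97 CPM in shfLuc and at 81.7, 97.6, 103 and 77.9 CPM in shPpp1r17 (0.31, edgeR adjusted p = 0.0789). Its library 4 of shPpp1r17 was barely above the highest shfLuc library. DESeq2 called both (adjusted p = 0.0188 for Iars and 0.0334 for Yars). Over 21 alternatives Iars was called in 7 and Yars in 3. On the log2(TPM + 1) scale their values were 0.16 and 0.15 (limma adjusted p = 0.454 and 0.428). In TPM the groups of Iars overlapped.

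The rest of the family moved less. Dars (log2 fold change 0.16), Gars (0.15), Tars (0.14) and Aars (0.14) had edgeR adjusted p-values of 0.204 to 0.367. Lars had the next lowest fold change after Wars, at -0.20 (edgeR adjusted p = 0.273). Its CPM ran from 41.2 to 44.7 in shfLuc and from 29.4 to 40.4 in shPpp1r17, so the groups did not overlap, and library 4 lay well below the others. On the log2(TPM + 1) scale the Lars value was -0.50. Farsa and Farsb, which encode the subunits of the phenylalanyl-tRNA synthetase, stood at -0.15 and -0.08. The other 8, Cars, Eprs, Hars, Kars, Mars1, Qars, Rars and Vars, had log2 fold changes between -0.02 and 0.14, with no adjusted p below 0.457.

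**Figure D3:**
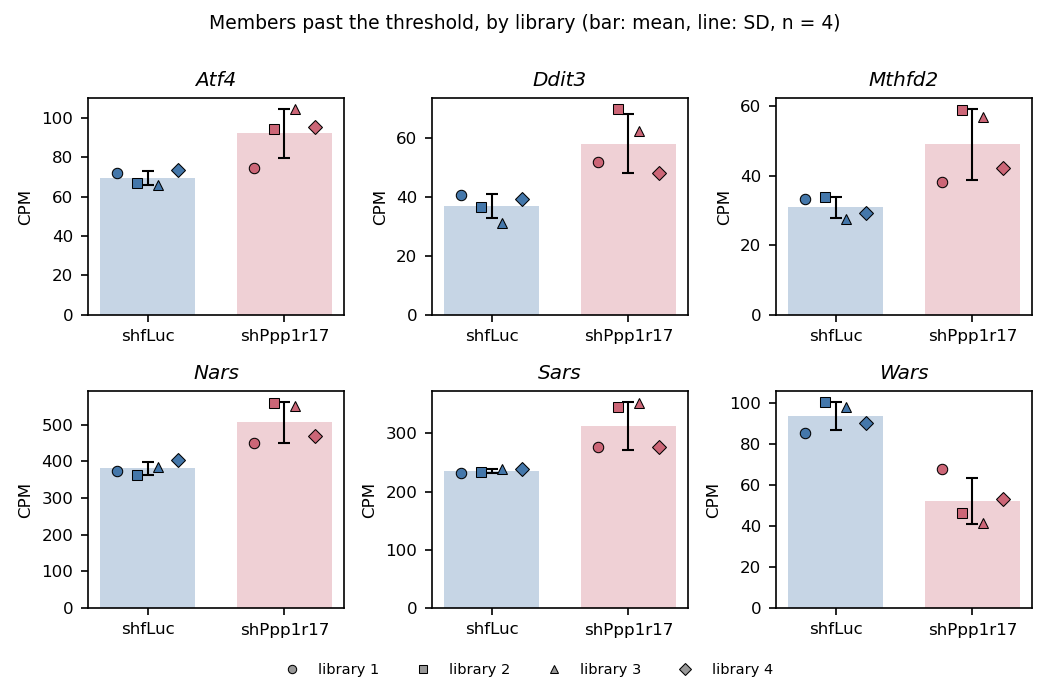
CPM of the 6 called genes in each library (points, shaped by library number), with group mean (bar) and SD (line), n = 4 per group. For the 5 genes called higher, libraries 2 and 3 of shPpp1r17 lie above library 1, and for Wars they are the lowest.

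In the ATF4 group of 17 genes, Atf4, Ddit3 and Mthfd2 rose, none fell and 14 did not pass. The median log2 fold change was 0.26 and 13 of 17 were above 0. Atf4 mRNA stood at 72.1, 66.9, 66.2 and 73.5 CPM in shfLuc 1 to 4 and at 74.6, 94.3, 105 and 95.5 CPM in shPpp1r17 1 to 4. Library 1 of shPpp1r17 was just above the highest shfLuc library, while the other three were clearly higher. The log2 fold change was 0.41 (SE 0.10, edgeR adjusted p = 0.0309). ATF4 is controlled chiefly in translation, and its protein was not measured.

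Ddit3, which encodes the stress-induced partner CHOP, stood at 40.6, 36.6, 31.2 and 39.4 CPM in shfLuc and at 51.7, 69.9, 62.2 and 48.0 CPM in shPpp1r17. Its groups did not overlap, and the log2 fold change was 0.65 (SE 0.12, edgeR adjusted p = 0.0133). The Ddit3 gene overlaps Mars1 on the opposite strand by 68 bases, and the labels do not say whether counting used strand. Mars1 had a log2 fold change of 0.05. Atf5, a relative of Atf4 under the same translational control, stood at 3.24, 4.09, 2.91 and 3.11 CPM in shfLuc and at 4.69, 4.69, 6.90 and 4.59 CPM in shPpp1r17. These groups did not overlap either, but at 68 to 189 reads per library the log2 fold change of 0.64 had an SE of 0.21 and an edgeR adjusted p of 0.0953. The Atf5 gene overlaps Nup62, which averaged 19.1 CPM over all libraries, on the other strand by 571 bases.

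The enzymes of asparagine, serine and one-carbon metabolism did not move together. Mthfd2, the mitochondrial folate dehydrogenase, rose from 33.4, 33.7, 27.6 and 29.2 CPM in shfLuc to 38.1, 58.8, 56.8 and 42.3 CPM in shPpp1r17. The groups were apart, with libraries 2 and 3 well above 1 and 4 (log2 fold change 0.66, SE 0.14, edgeR adjusted p = 0.0174). Asns, the asparagine synthetase, stood at 200, 189, 170 and 191 CPM in shfLuc and at 196, 215, 208 and 205 CPM in shPpp1r17. Library 1 of shPpp1r17 was below library 1 of shfLuc, and the value of 0.14 did not pass (edgeR adjusted p = 0.274).

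Along the serine pathway, Phgdh, its first enzyme, was at -0.14 (edgeR adjusted p = 0.469), Psat1, its second, at 0.35 (0.107) and Psph, its last, at 0.26 (0.232). The Psph gene overlaps Cct6a, which averaged 217 CPM over all libraries, on the other strand by 452 bases. Psat1 was near 40 CPM in all shfLuc libraries, from 39.3 to 41.8, and stood at 47.4, 63.0, 56.8 and 39.9 CPM in shPpp1r17, where library 4 was level with shfLuc. Its value depended on the libraries used: the log2 fold change was 0.45 without library 4 (edgeR adjusted p = 0.0170), 0.24 without library 2 (0.278) and 0.10 without libraries 2 and 3 (0.733). Shmt2, which makes glycine from serine in mitochondria, stood at -0.11.

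None of the 5 stress and growth regulators passed in edgeR, and 1 of them, Chac1, had an unadjusted p under 0.05. DESeq2 called Chac1 and none of the other four, and limma voom called none. Chac1, an enzyme that degrades glutathione, stood at 11.8, 8.73, 9.40 and 9.08 CPM in shfLuc and at 12.5, 13.2, 17.2 and 12.4 CPM in shPpp1r17. Its groups did not overlap, although shfLuc 1 came close to the lower shPpp1r17 libraries. The log2 fold change was 0.50 (SE 0.15, edgeR adjusted p = 0.0686). Trib3, an inhibitor of ATF4 that is itself an ATF4 target, had the highest fitted value, 0.90, with an SE of 0.65 (edgeR adjusted p = 0.453). Eif4ebp1, a repressor of cap-dependent translation, was at 0.66 (0.265), and Sesn2 and Ddit4, which restrain mTORC1, were at 0.05 and -0.09.

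Of the 3 transporter subunits none passed in edgeR, DESeq2 or limma voom, and 0 had an unadjusted p under 0.05. Slc7a5, the light chain of the large neutral amino acid transporter LAT1, stood at 22.9, 24.7, 22.3 and 26.6 CPM in shfLuc and at 25.6, 29.0, 32.8 and 22.3 CPM in shPpp1r17 (log2 fold change 0.18, edgeR adjusted p = 0.397). Slc3a2, the heavy chain that LAT1 and the cystine transporter share, stood at 82.8, 85.8, 81.0 and 71.0 CPM in shfLuc and at 87.0, 79.0, 86.7 and 80.7 CPM in shPpp1r17 (0.06, edgeR adjusted p = 0.724). In both genes the groups overlapped, although libraries 2 and 3 of shPpp1r17 lay above all shfLuc libraries for Slc7a5. Slc7a11, the cystine transporter's light chain, was at -0.11. The Slc7a5 gene overlaps the predicted gene Gm20388, which averaged 35.9 CPM over all libraries, on the other strand by 26545 bases.

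The calls rested on some libraries more than others. Without shPpp1r17 libraries 2 and 3 together, edgeR called none of the 37 genes, against 37 of all tested genes. There 8 of the 37 had an unadjusted p under 0.05, as did 2315 of all 18037 genes tested. The log2 fold changes of the 6 genes then were 0.27 for Nars, 0.23 for Sars, 0.28 for Atf4, 0.43 for Ddit3, 0.37 for Mthfd2 and -0.64 for Wars, all with the direction of the full set. Without shPpp1r17 library 3 alone Wars was the single gene still called, and without shPpp1r17 library 2, or without shfLuc 4, Nars, Ddit3 and Wars were. Without shfLuc 4 the edgeR adjusted p was 0.0670 for Atf4, 0.0606 for Sars and 0.0624 for Mthfd2. Leaving out shfLuc 2 or shfLuc 3 took edgeR's calls to 0 among the 37 and to 0 among all genes. At an unadjusted p under 0.05 were 11 and 12 of the 37, beside 3309 of 17778 and 3146 of 17773 genes tested. There limma voom also called 0, and DESeq2 7 and 6 of the 37. With all libraries, DESeq2 called 10 of the 37, the 6 above with Iars, Yars, Atf5 and Chac1.

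Per library, the median of the ATF4 group on the log2 CPM scale, relative to the shfLuc mean, was 0.12, 0.26, 0.35 and 0.14 in shPpp1r17 1 to 4, and in shfLuc it lay between -0.11 and 0.05. The median of the synthetases was 0.10, 0.14, 0.09 and -0.01 in shPpp1r17, against -0.04 to 0.05 in shfLuc. Libraries 2 and 3, which had the deepest loss of Ppp1r17, had the highest medians of the ATF4 group, while the synthetase median of library 3 was level with library 1. Markers of other cells were also higher in shPpp1r17. Libraries 2 and 3 had the highest medians there too for oligodendrocyte, microglia, plasma cell and endothelial markers, though not for blood cell or astrocyte markers. Neuron markers had the same order, with medians of 0.01, 0.12, 0.07 and -0.05 in shPpp1r17 1 to 4. So did endoplasmic reticulum stress genes outside the ATF4 group, at 0.13, 0.16, 0.18 and -0.02. Whether the ATF4 group followed the loss of Ppp1r17 or the cells behind these markers was not tested. Oligodendrocyte markers, 3 of 10 called higher, summed to 1324 to 1377 CPM in shfLuc and to 1358 to 2411 CPM in shPpp1r17, with medians of 0.23, 0.90, 0.91 and 0.16 in shPpp1r17 1 to 4. Microglia and macrophage markers, 7 of 12 higher, summed to 418 to 630 and 633 to 1173 CPM, with medians of 0.62, 1.13, 0.99 and 0.37. Blood cell markers, 5 of 5 higher, summed to 328 to 567 and 638 to 1231 CPM, with medians of 0.89, 1.49, 0.88 and 0.65, so that library 1 was level with library 3. Plasma cell markers, 2 of 6 higher, summed to 34.6 to 445 and 408 to 2624 CPM, with medians of 3.02, 3.95, 3.14 and 0.96, and their marker Mzb1 was the single marker listed at 0 in any library. Endothelial and mural markers had 1 of 10 called higher and 9 fold changes above 0, with a median log2 fold change of 0.26. They summed to 230 to 265 and 246 to 371 CPM, with medians of 0.02, 0.49, 0.50 and 0.15. Of 12 neuron markers 1 rose and 3 fell, and of 10 astrocyte markers 2 rose and 1 fell. The part of these cells in the changes of the 37 genes was not tested.

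**Figure D4:**
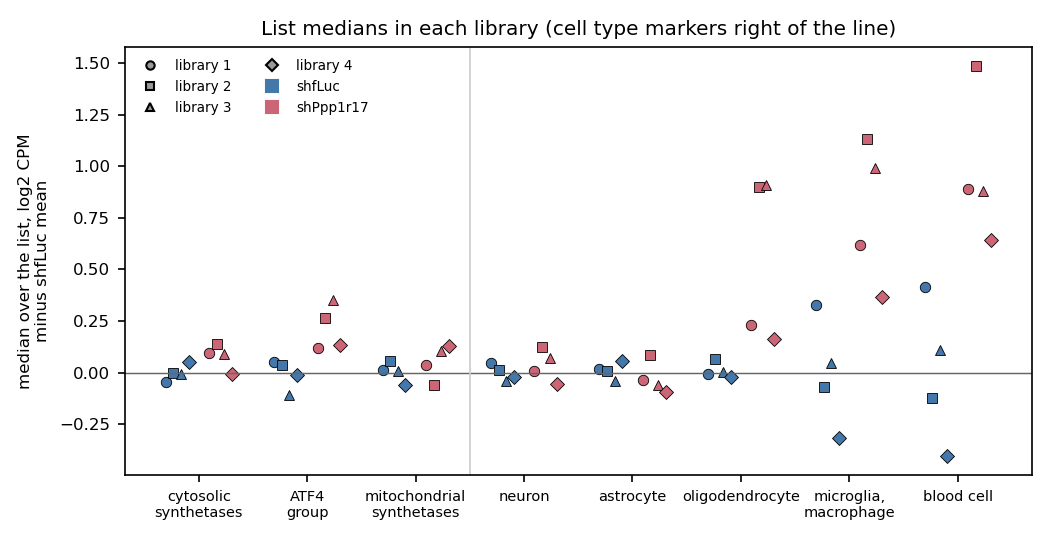
Median log2 CPM of each gene list in each library, minus the shfLuc mean (blue, shfLuc; red, shPpp1r17; shape, library number), with cell type markers to the right of the line. Libraries 2 and 3 of shPpp1r17 lead in the ATF4 group, and more widely in oligodendrocyte and microglia markers.

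Other genes of the pathway were called as well, where edgeR called 3.39% of all tested genes higher and 2.66% lower. The share called higher was 9.52% for other endoplasmic reticulum stress genes, 5.26% for the eIF2alpha list and 5.0% for other ATF4 pathway genes. The share called lower was 11.1% for other amino acid transporters and 4.76% for the reticulum genes. Of 8 genes for synthetase scaffolds and tRNA partners, 2 rose (25.0%) and none fell. Aimp1, a scaffold of the multisynthetase complex, stood at 87.7, 86.5, 83.2 and 88.7 CPM in shfLuc and at 108, 125, 126 and 124 CPM in shPpp1r17, with no overlap and with library 4 level with 2 and 3 (log2 fold change 0.48, SE 0.07, edgeR adjusted p = 0.00997). Eef1e1, another scaffold (AIMP3), stood at 97.0, 85.3, 95.1 and 94.9 CPM in shfLuc and at 110, 114, 112 and 113 CPM in shPpp1r17 (0.27, edgeR adjusted p = 0.0358). Among the shPpp1r17 libraries Eef1e1 varied little, while library 1 of Aimp1 lay below the other three.

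None of the 17 mitochondrial synthetases passed in edgeR or limma voom. In edgeR 5 had an unadjusted p under 0.05, as did 3913 of all 17339 tested genes. DESeq2 called 1 higher and 1 lower. Their median log2 fold change was 0.09, level with that of the cytosolic synthetases (0.09), and 10 of 17 were above 0. Without shPpp1r17 libraries 2 and 3 the edgeR medians were 0.11 (mitochondrial) and 0.03 (cytosolic). Wars2, the mitochondrial counterpart of Wars, stood at 0.53 (edgeR adjusted p = 0.0547), opposite in sign to Wars, and Tars2 at -0.30 (0.0927). Of 19 genes for the eIF2alpha kinases, the phosphatase and their regulators, 1 rose: Eif2s2, the beta subunit of eIF2, at 0.39 (edgeR adjusted p = 0.0197). The 4 kinase genes differed in sign and none passed. Eif2ak1 (HRI) stood at -0.35 and Eif2ak2 (PKR) at -0.26, with edgeR adjusted p-values of 0.1 and 0.425, and Eif2ak3 (PERK) stood at 0.28 and Eif2ak4 (GCN2) at 0.08 (0.230 and 0.750). Ppp1r15a, the stress-induced subunit of the eIF2alpha phosphatase, stood at 0.32 (0.279).

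Of 23 other ATF4 pathway genes, 20 were tested and 1 rose. It was Nupr1, a stress-induced chromatin protein, at 6.70, 4.77, 5.09 and 5.78 CPM in shfLuc and at 8.87, 12.3, 15.8 and 10.1 CPM in shPpp1r17 (log2 fold change 1.08, SE 0.20, edgeR adjusted p = 0.0124). Atf3 had a higher fitted value, 1.23, but ran from 1.09 to 7.15 CPM within shPpp1r17 (edgeR adjusted p = 0.126). Among 18 tested amino acid transporters outside the 37 genes, 2 fell and edgeR called none higher (DESeq2, 1 higher and 3 lower): the glycine transporter Slc6a9 at -0.69 (edgeR adjusted p = 0.0144) and Slc36a4 at -0.34 (0.0472). Among 21 endoplasmic reticulum stress genes outside the ATF4 group, Manf (0.32) and Xbp1 (0.26) rose and Pdia3 (-0.53) fell. The median of these 21 was 0.12, near the 0.14 of the 37 genes, with 14 above 0 and 7 below. Groups did not overlap for 5 that were higher and 1 that was lower (7.12% and 6.74% of all tested genes). Medians were 0.02 for the scaffolds and tRNA partners, -0.02 for the eIF2alpha list, 0.05 for other ATF4 pathway genes and -0.01 for the transporters. Hspa5, the reticulum's main chaperone, was at 0.11 and did not pass (edgeR adjusted p = 0.277). Of the 9 called genes outside the 37, none passed without shPpp1r17 libraries 2 and 3 in edgeR, where Aimp1 stood at 0.42 (adjusted p = 0.0881) and Nupr1 at 0.76 (0.134). Over 21 alternatives, Aimp1 and Nupr1 were each called in 18, Eef1e1 in 10, Slc36a4 in 8 and Xbp1 in 7.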

How the data were processed

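Per the labels' protocols, RNA came from small tissue samples (PicoPure kit) and libraries from a SMARTer kit. The authors' deposited tables hold, per the file headers, an estimated count of reads, a TPM value, a length and an effective length for each of 55487 mouse gene identifiers. Listed in the submitters' processing notes are DRAGEN, bcl2fastq, limma and edgeR, without versions or roles. No source used here gives the genome build, annotation or strand setting. The deposited estimated counts could be fractional (at most 10.1% of genes in a library) and were rounded. The deposited TPM values, which the authors scaled to length and library, served for levels compared between genes and for an alternative. No molecular identifiers are named in the labels, so reads cannot be taken as independent molecules.

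The groups and replicate numbers are those of the sample titles. edgeR 4.0.16 (R 4.3.3) was run after its filter on low counts (filterByExpr, count 10 and total 15), with TMM factors, a quasi-likelihood fit with the group as the single term, and Benjamini-Hochberg adjustment over all 17339 tested genes, with a threshold of 0.05. CPM are TMM-scaled, and SEs come from the fold change and F statistic. The 37 genes, the other lists and the alternatives were chosen with earlier results of these data known. No test was made over a list. Values per library are given for each called gene, and in each role for the gene with the smallest p and the one with the highest TPM. Iars, Yars, Psat1, Lars and Atf5 were added after their values were seen. From the other lists, genes past the threshold and those with the smallest p were named, with Eif2ak2, Eif2ak3, Eif2ak4, Ppp1r15a and Hspa5 added later for their known roles. Alternatives used DESeq2 1.42.0, limma 3.58.1 (voom with and without quality weights, and log2 of TPM with a pseudocount of 1), other scaling, filters and offsets, and left-out libraries. Leaving libraries out under DESeq2 and voom was chosen after seeing the data. As a check for libraries deposited more than once, the chi-square per degree of freedom between libraries of a group was 7.10 to 37. Scripts were tested on simulated data. Promoter windows are RefSeq's, and 3' UTRs of at least 50 bases and gene overlaps come from GENCODE M21 (GRCm38), which may not be the authors' build. Letters were searched with Python 3.11.15 and pandas 2.3.3.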

Additional observations from a re-analysis of the deposited data

Results flagged for a closer look

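In 7 of 74 groups of 4 libraries (37 genes in both groups), a single library stood apart, its gap to the nearest other library taking more of the group's range than Dixon's critical value for 4 values allows. Chance gives this in about 5% of groups. Iars stood at 48.1 CPM in shfLuc 4, where the other shfLuc libraries held 40.3 to 40.6, and at 65.2 CPM in shPpp1r17 2, where the others held 49.97 to 51.9. Lars stood at 29.4 CPM in shPpp1r17 4 against 38.7 to 40.4 in the others. Farsa stood at 24.6 CPM in shPpp1r17 1 against 17.96 to 18.3. Atf5 stood at 6.90 CPM in shPpp1r17 3 against 4.59 to 4.69, and Chac1 at 17.2 CPM in the same library against 12.4 to 13.2. Trib3 stood at 0.769 CPM in shfLuc 3 against 0.213 to 0.236, from 18 reads. None of the 6 called genes was among them.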

How the results depend on the processing

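The 6 called genes kept their direction in all 21 alternatives but not their calls, which were lost in 8 for Atf4, 8 for Sars, 7 for Mthfd2, 5 for Nars, 4 for Ddit3 and 3 for Wars, and 14 of the 37 genes changed sign in at least 1. Compared with 1050 genes, 6 of the 37, 3 synthetases and 3 of the ATF4 group, DESeq2 called 1925, 10, 5 and 5, and limma voom with quality weights 1763 genes and 5 synthetases. On log2(TPM + 1), 2 of the 37 (Wars and Ddit3), 1 synthetase and 1 of the ATF4 group passed, and all genes split into 309 higher and 488 lower against 588 and 462. That scale moved the median of all genes to -0.062, and the synthetase median of 0.003 and Slc3a2, which took a negative sign at -0.041, stayed above it. Without shPpp1r17 libraries 2 and 3, 37 genes, 0 of the 37, 0 synthetases and 0 of the ATF4 group passed, the medians were 0.029 (synthetases) and 0.095 (ATF4 group), and Slc7a5 turned to -0.014. With each library left out, edgeR called 0 to 1548 genes, 0 to 9 of the 37, 0 to 5 synthetases and 0 to 4 of the ATF4 group, DESeq2 1002 to 2367 genes and 6 to 11 of the 37, and limma voom 0 to 1671 genes and 0 to 9 of the 37. The lowest edgeR counts came without shfLuc 2 or 3, and low ones without shfLuc 4 (287 genes), shPpp1r17 2 (310) or shPpp1r17 3 (196). The cause was not tested.

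What the replicate numbers stand for is not stated in the labels. The correlations of the deviations of same-numbered libraries were -0.012, 0.035, 0.006 and 0.116, and 2 of 4 correlated best with their own number. So few pairs cannot settle whether a number marks a batch. With the replicate block, 726 genes, 5 of the 37, 3 synthetases and 2 of the ATF4 group passed, Atf4 being the one not called (log2 fold change 0.40, edgeR adjusted p = 0.0601). Sars was also not called with the effective length offset (0.33, edgeR adjusted p = 0.0503). For Trib3 and other genes of few reads, depth limits what can be seen.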
